A study of Vitis vinifera with 2 samples.

Results

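Genes with exactly 2 promoter peaks were examined in a map of the binding of VlbZIP30, a transcription factor tagged with the FLAG epitope, in grapevine (Vitis vinifera) leaves. They were found by taking every peak that the authors' list annotated as promoter, grouping the peaks by the gene named in that annotation and keeping the genes with exactly 2. There were 480 such genes with 960 peaks, or 4.03% of the 11907 genes with a promoter peak (95% Wilson interval 3.69 to 4.40%). The other 11427 genes had 1 promoter peak and 0 had 3 or more. The members were chosen by the number of promoter peaks called in the list, and their scores and positions come from the same calls, so all values below are a description and none was tested.

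Chromatin immunoprecipitation followed by sequencing (ChIP-seq) was done with an anti-FLAG antibody in 1 library, against 1 control library whose title says input and whose antibody field says IgG. Which of these descriptions holds could not be settled. Both libraries came from transgenic plants that overexpressed VlbZIP30 fused to 3 copies of FLAG under the CaMV 35S promoter, a viral promoter active in most plant tissues. The plants were 4 months old, had gone without water for 20 days, and gave their uppermost leaves. Plants without the tag, watered plants and replicate libraries were not analysed here, so no effect of drought, of the transgene or of replicate error could be measured. From these libraries came 1 list of 49173 peaks, and the depth of the libraries is unknown.

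Basic leucine zipper (bZIP) factors bind DNA as dimers. In plants, those of the abscisic acid pathway are known to recognise short sites with an ACGT core, which often occur in several copies in the promoters of stress-responsive genes. Abscisic acid is the hormone that closes stomata and switches on protective genes when water is short. A promoter with 2 separate peaks is one in which a peak caller marked a pair of enriched stretches with a gap between them. No genome sequence was used here, so the sites under the peaks were not looked for and no sequence is shown. Of the 480 gene identifiers, 0 matched the RefSeq gene table used for names, so the genes keep their identifiers. No role is given to them.

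For each gene the peak farther upstream of the transcription start site is called the outer peak and the other the inner peak. The list gives a signed distance from each peak to its nearest start site, from which the start site and strand were recovered for 477 of the 480 genes. The remaining 3 genes enter only the values that need no orientation. Both peaks had the gene itself as the nearest gene at 440 genes, 1 of the peaks did at 37 and neither did at 3. The peaks of each pair were consecutive in the list in 480 of 480 genes, so no further peak lay between them.

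The pairs joined a peak on the start site to a peak near the far edge of the promoter. Relative to the start site, with negative values upstream, outer centres had a median position of -861 bp (quartiles -935 and -755, n = 477 genes) and inner centres a median position of -11 bp (quartiles -88 and 46). The inner peak spanned the start site at 432 genes (90.6%, 95% Wilson interval 87.6 to 92.9%). Outer peaks did so at 0 of 477 genes. That 0 is fixed by the rule, since the inner peak beyond such an outer peak would have its centre outside the promoter window. Inner centres lay at or beyond the start site, on the gene side, at 212 genes (44.4%).

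The promoter window bounds these positions. Promoter centres ran from -1000 to 100 bp of the start site, the shortest peak of the list had 196 bp and the smallest gap between any neighbours had 197 bp. Centres of a pair could therefore be no closer than 393 bp and no farther apart than 1100 bp. Of the outer centres, 63.5% lay 800 to 1000 bp upstream, while 6.96% of the 11051 only promoter peaks with a known distance did. Within 100 bp of the start site lay 77.6% of the inner centres, against 38.8% of the only promoter peaks. The rule needs both peaks inside the window, which by itself moves the pair towards its edges, so nothing is read from this difference.

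**Figure D1:**
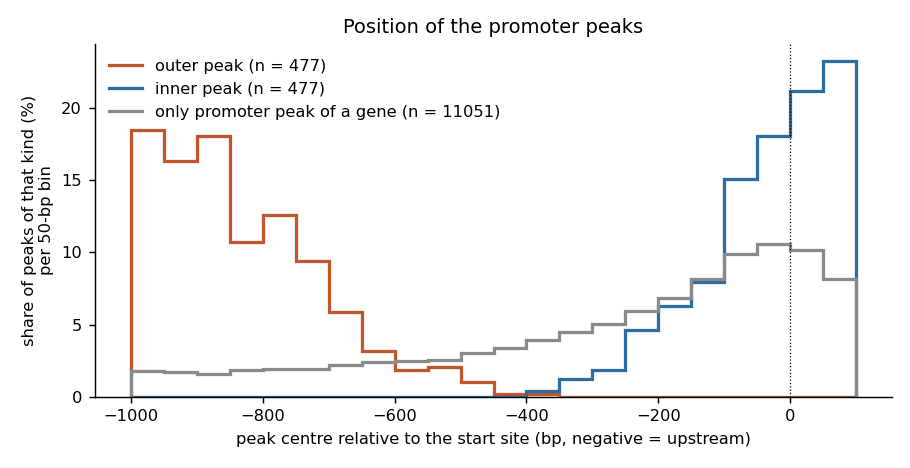
Share of peak centres (%) in bins of 50 bp by distance from the start site (bp, negative upstream), for outer peaks, inner peaks and the only promoter peak of other genes. Outer peaks crowd towards the upstream edge at -1000 bp and inner peaks within 100 bp of the start site. The positions of outer and inner peaks hardly overlap, which the labels, the window and the least spacing of 393 bp largely set.

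Beyond the window, similar genes were left out by a short distance. A further peak centred up to 100 bp past the upstream edge was found at 164 genes with 1 promoter peak, with a median score of 7.02 (quartiles 3.95 and 16.4). Just inside that edge, 166 members had their outer centre in the last 100 bp, with a median score of 6.07 (quartiles 3.22 and 13.4). Past the downstream edge, 160 genes with 1 promoter peak had a further centre within 100 bp, with a median score of 6.49. In the last 100 bp inside it lay the inner centres of 210 members, with a median score of 7.93. The number 480 thus depends on where the window ends.

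The 2 centres were 807.5 bp apart in the median gene (95% binomial interval of the median 790 to 820.5 bp, quartiles 706 and 903 bp, n = 480). Spacing ran from 425.5 to 1079 bp. The stretch between the facing edges had a median of 320 bp (306 to 335 bp) and ran from 198 to 766 bp. This gap was under 250 bp at 118 genes (24.6%) and under 500 bp at 421 genes (87.7%). The narrowest gaps thus stood close to the least distance at which the list keeps peaks apart. At the 13 genes described below whose peaks both scored high, the centres were 731 to 1036 bp apart.

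The widest pair lay on chromosome 14, where peaks from 17663129 to 17663400 (score 6.16) and from 17664031 to 17664656 (score 10.2) had centres 1079 bp apart. The next was on chromosome 9 (1550207 to 1550677, score 25.4, outer, and 1549081 to 1549669, score 7.08, inner), with 1067 bp between the centres. A pair on the sequence named Un (14257840 to 14258398, outer, and 14256592 to 14257512, inner) was also 1067 bp apart, with scores of 14.3 and 24.1. The narrowest pair, 425.5 bp apart, was also on Un (19032115 to 19032321, score 2.45, and 19032520 to 19032767, score 4.06). Narrow pairs followed on chromosome 19 (2392001 to 2392210 and 2392420 to 2392650, 429.5 bp) and chromosome 12 (8176099 to 8176324 and 8176545 to 8176780, 451 bp). Peaks of the narrow pairs were 207 to 248 bp long, close to the shortest in the list, since a small spacing leaves no room for a long peak.

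The score is the authors' value for each peak, with no scale named. It ran from 1.30142 to 205 in the list, and the -log10 of 0.05 is 1.30103. Scores were compared as differences and as ranks within the list. The percentile of a peak is its rank from the lowest score as a share of the list, with equal scores given their mean rank. Among the 960 member peaks there were 347 distinct scores, and 43 peaks shared the most frequent one, 2.45. Equal medians below partly reflect such shared values.

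Peaks of a pair were often unequal. The higher-scoring peak had a median of 11.7 (95% binomial interval 10.5 to 13.2, quartiles 6.49 and 22.9) and the lower-scoring peak a median of 4.08 (3.64 to 4.24, quartiles 2.78 and 6.49, n = 480 genes each). Their medians of rank were the 62.7th percentile of the list for the higher and the 29.3rd for the lower. The difference within a gene had a median of 5.97 (5.29 to 6.92) and quartiles of 2.39 and 15.3. It was at least 5 at 274 genes, at least 20 at 84 and at least 30 at 37. Scores were equal at 7 genes.

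Few pairs held a pair of strong peaks. Of all promoter peaks in the list, 36.4% scored at or above its upper quartile of 18.5, while 166 of the 960 member peaks (17.3%, 95% Wilson interval 15.0 to 19.8%) did. Both peaks reached that level at 13 genes (2.71%), 1 did at 140 genes (29.2%) and neither at 327 genes (68.1%). At the list's median score of 7.56 or above stood 68.8% of promoter peaks and 45.8% of member peaks (440), both of them at 103 genes, 1 at 234 and neither at 143. The level of the upper quartile was reached by nearly equal shares of outer and inner peaks, 17.4% (83 of 477) and 17.2% (82 of 477). Where 1 peak alone reached it, that peak was the outer one at 70 of 139 genes. The number of genes at which these shares alone would put both peaks at that level was not computed. No trait of the pairs is therefore read from the 13 genes.

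**Figure D2:**
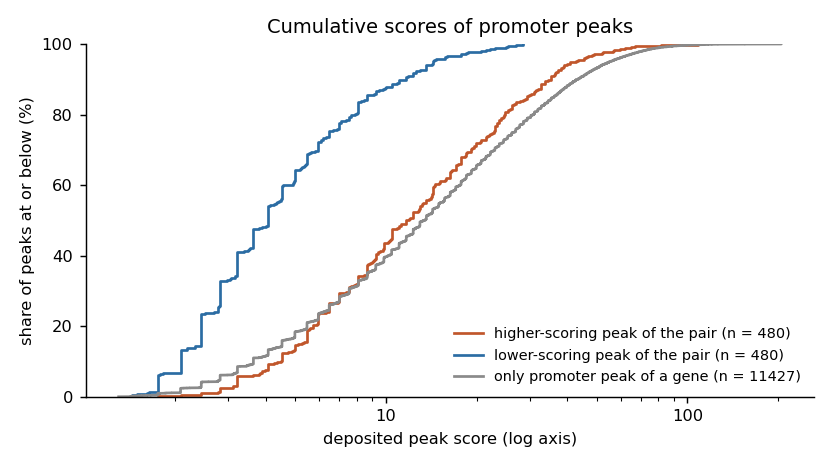
Cumulative share of peaks (%) by deposited score (log axis) for the higher-scoring and the lower-scoring peak of each pair and for the only promoter peak of other genes. The curve of the higher-scoring peaks (median 11.7) runs close to that of the only peaks (median 13.4), and that of the lower-scoring peaks (median 4.08) lies far to the left.

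Scores of the outer and the inner peak of a gene went together hardly at all. Across 477 genes the Spearman rho of the scores was 0.031 and the Pearson r of their log10 values 0.036, given as a description of peaks from the same pair of libraries. A strong outer peak thus stood beside weak and strong inner peaks alike.

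**Figure D3:**
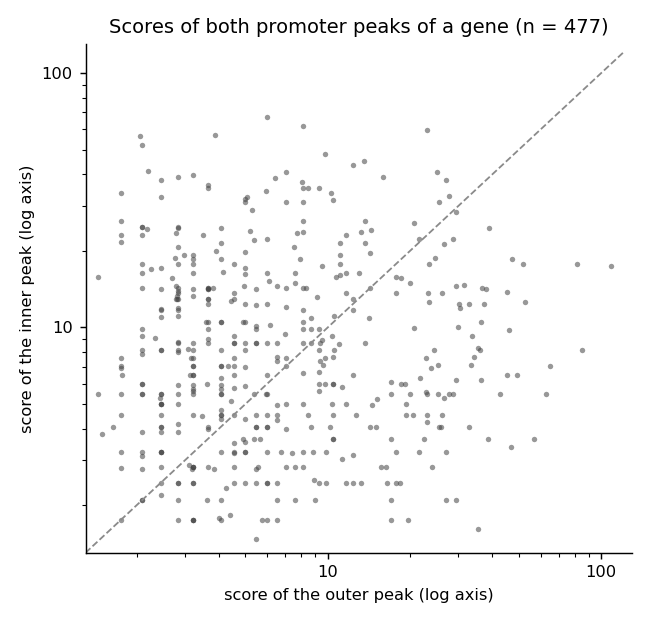
Score of the inner peak against that of the outer peak (log axes), 1 point per gene (477 genes); the dashed line marks equal scores. The cloud has no slope, 206 genes lie below the line with the outer peak higher and 264 above it with the inner peak higher.

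The inner peak was the higher one somewhat more often. The outer peak scored higher at 206 genes (43.2%, 95% Wilson interval 38.8 to 47.7%), the inner at 264 (55.3%, 50.9 to 59.7%) and 7 were equal. Median scores were 5.57 for outer peaks (95% binomial interval 4.996 to 6.49) and 7.56 for inner peaks (6.70 to 8.64). Genes on the plus strand had the outer peak higher in 42.1% (104 of 247) and genes on the minus strand in 44.3% (102 of 230). Inner-higher genes were the more frequent on 14 of the 19 numbered chromosomes, outer-higher genes on 4, and 1 had equal numbers. Chromosome 16 went most clearly the other way, with the outer peak higher at 16 genes and the inner at 8, and chromosome 6 had the outer peak higher at 5 genes and the inner at 19.

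Scores were higher in pairs whose centres were farther apart. In the 43 pairs under 600 bp apart, the median higher score was 5.98 and the median lower score 2.82. In the 89 pairs 900 to 1000 bp apart, these medians were 20.0 and 5.29, and in the 34 wider pairs 16.8 and 6.14. Peak length moved along with both, from medians of 350 bp (longer peak) and 224 bp (shorter peak) in the closest pairs to 744 and 339 bp in the widest. The part of length in this was not tested. For the score difference within a gene, the relation had the other sign when measured from edge to edge. Over 480 genes the Spearman rho with this difference was 0.178 for the centre spacing and -0.160 for the gap. With the higher score the gap had a rho of -0.150, and no such rho is given for the centre spacing. The share of genes with the outer peak higher had no steady course over the spacing. It was 57.1% under 600 bp (24 of 42), 37.7% from 600 to 700 bp, 40.4% from 700 to 800 bp, 47.3% from 800 to 900 bp, 42.7% from 900 to 1000 bp and 32.4% beyond (11 of 34).

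Peaks of pairs were short, and the higher one was mostly the longer. The median length was 391 bp for outer peaks (95% binomial interval 361 to 412 bp) and 440 bp for inner peaks (416 to 460 bp). All member peaks together had a median of 412.5 bp, against 654 bp for the only promoter peaks (n = 11427), the longest of which had 11054 bp. A pair inside a window of 1100 bp cannot hold peaks of that length, and the longest member peak had 1356 bp. At 336 of 477 genes (70.4%) the higher-scoring peak was also the longer one. Score and length of a peak were related across genes, with Spearman rho of 0.519 for outer and 0.649 for inner peaks.

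Set beside the only promoter peaks of other genes, the higher peak of a pair scored slightly lower and the lower peak much lower. The higher peaks' median of 11.7 lay 1.64 below the 13.4 of the only peaks (the difference was -1.64, with bounds of -2.93 and -0.17 from the interval of the members' median). Among only promoter peaks no longer than the longest member peak the difference was 0.676 in favour of the higher peak. The median difference over 8 strata of similar length was 2.12, with the higher peak ahead in 7 of them. The sign of the difference thus followed the treatment of length. Picking the higher of a pair also raises the median of the higher peaks by itself. Without such picking, member peaks under 400 bp scored below only promoter peaks of like length. At 196 to 300 bp the medians were 3.64 (outer, n = 156) and 3.64 (inner, n = 98), against 4.08 (n = 1361), and at 300 to 400 bp 5.39 (n = 91) and 5.48 (n = 105), against 6.49 (n = 1344). Member peaks 500 to 700 bp long had median scores of 9.39 (outer, n = 107) and 11.8 (inner, n = 103), against 13.6 for only promoter peaks of that length (n = 2176). At 700 to 1000 bp the medians were 20.2, 21.0 and 18.5 (n = 38, 64 and 1990), and at 400 to 500 bp 7.02, 9.78 and 8.996 (n = 79, 103 and 1293).

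Set against only promoter peaks at the same distance, pair peaks also scored lower. From 1000 to 800 bp upstream, outer peaks had a median score of 6.11 (n = 303, median length 436 bp), against 11.7 for only promoter peaks at that distance (n = 767, 694 bp). From 800 to 600 bp upstream the medians were 4.54 (n = 148, 340.5 bp) and 14.3 (n = 934, 800.5 bp). In the 200 bp before the start site, inner peaks had a median of 8.12 (n = 226, 443 bp) against 13.6 (n = 3923, 587 bp), and in the first 100 bp of the gene 7.93 (n = 212, 456 bp) against 11.1 (n = 2021, 554 bp). Lengths differed in each of these windows, and peaks were not matched on length and distance together.

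Close pairs of peaks elsewhere in the list gave a measure of what any neighbours share. With centres as far apart as in the members, 425.5 to 1079 bp, there were 6362 other neighbouring pairs. Those with both peaks intergenic (1565 pairs) had a median higher score of 12.0 (95% binomial interval 11.4 to 12.9) and a median lower score of 4.08 (3.88 to 4.08), with a difference of 6.21 (5.57 to 6.72). The members' medians of 11.7, 4.08 and 5.97 fell within these intervals. All 6362 other pairs together had lower medians, 7.73 for the higher and 3.22 for the lower peak, with a difference of 3.63. The scores of neighbours were also nearly unrelated there, with a Spearman rho of 0.084 over all other pairs and 0.115 over intergenic ones, against 0.014 between the left and right peak of the 480 members. Unequal close pairs thus occurred outside promoters too.

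The 10 genes with the highest-scoring lower peak had outer centres from -980 to -782 bp and inner centres from -139 to 91 bp. At the first of them, on chromosome 5, the outer peak (386924 to 387669) scored 29.4 and the inner peak (387971 to 388457) 28.5, around a plus-strand start site at 388198. The next, on chromosome 15, scored 27.7 (outer, 18150447 to 18150997) and 32.8 (inner, 18151313 to 18152051). On chromosome 18 the scores were 27.0 (5504558 to 5505142) and 38.0 (5505383 to 5506225). These 3 genes lie on the plus strand and have their inner peak across the start site.

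The same arrangement was seen on the minus strand, where the rest of the 10 lie apart from the gene on chromosome 2, on the plus strand. On chromosome 3 the outer peak (16941905 to 16942491) scored 25.5 and the inner (16941145 to 16941527) 31.1, and on chromosome 1 the scores were 25.1 (7030954 to 7031369) and 40.7 (7030032 to 7030657). A gene on chromosome 5 had the outer peak ahead, with 38.9 (2522512 to 2523160) against 24.6 (2521497 to 2522103). The most unequal of the 10, on chromosome 13, scored 23.0 outside (337061 to 337496) and 59.9 at the start site (335847 to 336773). The last 3 lay on chromosome 15 (17191116 to 17191634 with 28.6 and 17190206 to 17190626 with 22.2), chromosome 11 (596253 to 596816 with 21.5 and 595024 to 596007 with 22.2) and chromosome 2 (9011161 to 9011544 with 26.7 and 9011803 to 9012648 with 21.2), outer peak first. The 13 genes with both peaks at or above the upper quartile, which include these, lay on 9 numbered chromosomes and, in the case of 1 gene, on Un, had the outer peak higher at 6 and had the inner peak across the start site at 13 of 13.

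Where the outer peak led most, it was among the strongest in the list, which follows from choosing genes by a wide lead. At VIT_16s0039g02750 on chromosome 16, the outer peak (3127878 to 3128531, centre 935 bp upstream of a minus-strand start site at 3127269) scored 109, at the 99.8th percentile, and the inner peak (3127190 to 3127578) scored 17.4. This was the widest difference of the 477 genes, 91.4. At VIT_10s0003g02810 on chromosome 10 the outer peak (4893446 to 4893912) scored 85.3 and the inner peak (4894289 to 4894551) 8.12. Genes on chromosome 11 (5776813 to 5777498, outer, 81.7, and 5776026 to 5776417, inner, 17.7) and chromosome 5 (22070906 to 22071480, outer, 64.8, and 22071713 to 22072100, inner, 7.02) came next. The fifth, also on chromosome 11, had 63.0 outside (4222385 to 4223164) and 5.48 at the start site (4223367 to 4224085). The inner peak spanned the start site in each of these 5 genes, as it did at 90.6% of all 477. These 5 inner peaks stood between the 39.9th and the 73.3rd percentile of the list.

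Where the inner peak led most, the outer peak could be near the floor of the list. At VIT_05s0077g02080 on chromosome 5 the outer peak (1615130 to 1615570) scored 5.98 and the inner peak (1613896 to 1614805) 67.1, the highest inner score of all. At VIT_09s0002g05080 on chromosome 9 the outer peak (4728493 to 4728792) scored 2.06, at the 3.39th percentile, and the inner peak (4727683 to 4728290) 56.6. This gene also carried the highest-scoring peak outside promoters of any member, 105, in its only exon (4726899 to 4727411, centre 597 bp beyond the start site). The 3 others lay on chromosome 11 (5802479 to 5802999 with 8.12 and 5803198 to 5803878 with 61.9), chromosome 12 (6188735 to 6189198 with 3.88 and 6189425 to 6190035 with 56.9) and chromosome 19 (2296242 to 2296603 with 2.09 and 2297104 to 2297618 with 52.0), outer peak first.

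**Figure D4:**
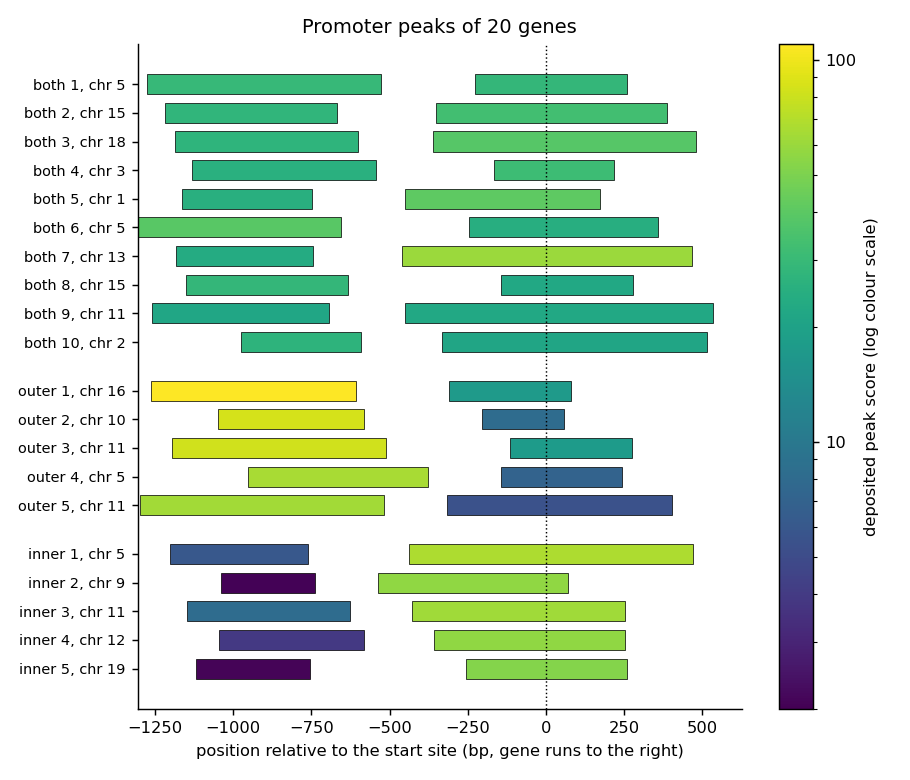
Peaks drawn to scale by position relative to the start site (bp, gene to the right) and coloured by score (log colour scale) for the 10 genes with the highest lower score (both), the 5 with the widest lead of the outer peak (outer) and the 5 with the widest lead of the inner peak (inner). All 20 inner peaks cross the start site, and outer peaks reach back beyond 900 bp upstream in each gene.

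Outside the promoter, members had peaks of each class about as often as all genes with a promoter peak. A peak in an exon was found at 113 members (23.5%), against 24.8% of all genes with a promoter peak. A peak in an intron was found at 110 (22.9%) against 25.2%, one at the transcription termination site at 136 (28.3%) against 30.9%, and an intergenic one nearest to the gene at 184 (38.3%) against 38.1%. Each of these shares is near its background and is no result about the members. No other peak of their own was found at 135 members (28.1%), against 28.0% of genes with 1 promoter peak. At the 345 members with another peak, a promoter peak was the highest-scoring of the gene at 212 (61.4%, 95% Wilson interval 56.2 to 66.4%), against 58.8% (57.7 to 59.8%) of such genes with 1 promoter peak. Members have a further promoter peak that could be the highest, which can raise their share by itself. These shares are therefore not alike, and no likeness or difference is read from them. Median scores of the members' peaks outside promoters were 3.64 in exons, 3.18 in introns, 5.48 at termination sites and 8.63 in intergenic space.

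Listed start sites of other genes were found close to some pairs. A listed start site on the other strand lay within 2 kb upstream at 16 of 477 members (3.35%, 95% Wilson interval 2.08 to 5.38%), and any other listed start site within 300 bp of the outer centre at 9 (1.89%). At the 16 genes the outer peak was the higher one at 5 (31.2%, 14.2 to 55.6%), against 201 of the other 461 (43.6%, 39.1 to 48.2%). Outer peaks of the 16 had a median score of 8.66, with a 95% binomial interval from 3.22 to 23.0, and inner peaks 8.18, against 5.48 and 7.56 at the other 461. Only the 12847 genes with 2 or more peaks have a start site of known strand here, and a peak is assigned to 1 promoter only, so these counts are lower limits and do not show how often such start sites occur.

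Genes with 2 promoter peaks made up 4.03% of genes with a promoter peak in the whole list. This share ran from 2.74 to 6.54% on the 19 numbered chromosomes. It was highest on chromosome 5, with 45 of 688 genes with a promoter peak (6.54%, 95% Wilson interval 4.92 to 8.64%), and on chromosome 16, with 25 of 401 (6.23%, 4.26 to 9.04%). The lowest shares were 2.74% on chromosome 12 (14 of 511, 1.64 to 4.55%) and 2.99% on chromosome 18 (28 of 938, 2.07 to 4.28%). The intervals of chromosomes 12 and 18 include 4.03%, and those of chromosomes 5 and 16 lie above it. These chromosomes were picked as the extremes of 19, and no difference between chromosomes was tested. Members lay on each of the 19 numbered chromosomes (463 genes), on Un (15) and on sequences named random (2).

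**Figure D5:**
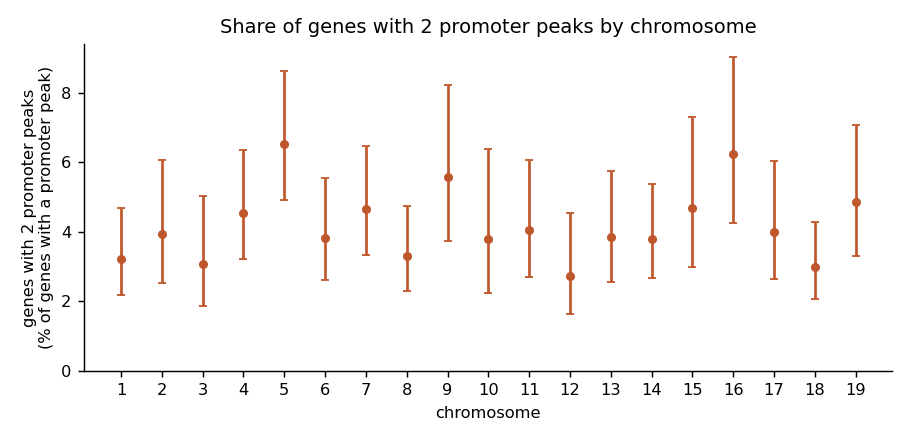
Genes with 2 promoter peaks as a share (%) of genes with a promoter peak on each numbered chromosome; bars are 95% Wilson intervals, which cover counting error only. Chromosomes 5 (6.54%) and 16 (6.23%) are highest and chromosome 12 (2.74%) is lowest.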

How the data were processed

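The authors deposited 1 list of peaks with a score for each peak, positions, an annotation, a signed distance to the nearest start site and the nearest gene, per the file headers. BWA, MACS2 and HOMER are named in the submitters' processing notes, with no role; their versions and settings, the build and the gene models were not stated in the labels or headers. Coordinates are the list's own, and peak length counts both end positions. The deposited score was used only for ranks, medians and differences.

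Start sites and strands were recovered from the signed distances (tolerance 2 bp) and, where the strand stayed undecided, from the promoter window. The recovered distances equalled the deposited ones at the 440 genes whose peaks were both nearest to them. Their start sites were computed from these same distances, so the match was largely fixed in advance and is no check of the recovery. Shares carry 95% Wilson intervals and medians 95% binomial (order-statistic) intervals; both cover counting error only, and peaks of 1 library are not replicates. No test was run, and no read counts were used. Named genes were the 10 with the highest lower score, the 5 with the widest lead of either peak and the 3 widest and 3 narrowest pairs; only 4 identifiers are printed because no table gives names. Members, rules and alternatives were chosen with earlier results of these data known. Recovery and intervals were tested on simulated data. The planned motif count needed a genome and was not run. The software was matplotlib 3.10.9, scipy 1.17.1, pandas 2.3.3 and numpy 2.4.6 under Python 3.11.15.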

Additional observations from a re-analysis of the deposited data

How the results depend on the processing

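Of 26 alternative values, 15 stayed within the interval of the reported value (counts, within 1.5 times), 9 moved and 2 changed sign. The number of genes, 480, fell to 103 with promoter peaks at or above the list median, to 13 at or above its upper quartile and to 59 when gaps under 500 bp were merged. It was 2225 with any peak centred from -1500 to 500 bp of the nearest start site and 160 from -800 to 100 bp; both windows, and the setting without upstream neighbours, were chosen after seeing the data. These changes follow from the settings' construction. The spacing of 807.5 bp was 320 bp from edge to edge and 868.5 bp with both peaks at or above the list median, where the score difference was 9.75. The higher peak's difference from only promoter peaks, -1.64, was -9.31 for the lower peak, 2.12 within length strata and 0.676 against only promoter peaks no longer than the longest member; the cause was not tested beyond length. The share of genes with the outer peak higher ran from 41.0 to 47.6% in its 7 other settings. No paired analysis was possible because there was 1 library a group, and no replicate could be left out. Library depth is unknown.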

Other observations

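Of the genes named for a wide lead of either peak, a pair on chromosome 11 faced away from each other. Neither had a listed start site of the other strand within 2 kb upstream. Their own start sites, at 5776302 and 5803625, lie farther apart than that, so their promoter windows do not overlap. The minus-strand gene with its start site at 5776302 had the outer peak ahead, with scores of 81.7 and 17.7, and the plus-strand gene with its start site at 5803625 had the inner peak ahead, with scores of 8.12 for the outer and 61.9 for the inner peak. The gap between the peaks of the plus-strand gene was 198 bp, the smallest among the members and shared by 5 of them. In the order of genes with a promoter peak along each sequence, 25 neighbouring pairs were both members. Members made up 4.03% of these 11907 genes. The number of pairs that this share alone would give was not computed, so the count is no sign of clustering.

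Genes with ENSRNA identifiers had 2 promoter peaks at 9 of 222 (4.05%, 95% Wilson interval 2.15 to 7.52%), against 471 of 11685 genes with VIT identifiers (4.03%, 3.69 to 4.40%).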
